A study of Mus musculus with 6 samples.

Results

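The nuclear-encoded subunits of respiratory complexes II, III and IV and of ATP synthase, together with cytochrome c, were followed in an embryonic stem cell transcriptome. They were chosen by name, as the rows carrying 37 listed gene symbols, and all 37 were found among the 12331 gene rows. They comprise 4 genes of complex II, 7 of complex III, 1 for cytochrome c, 10 of complex IV and 15 of ATP synthase. The RNA source was the established mouse embryonic stem cell line E14tg2a, grown with LIF, and the labels name no genetic change or drug. Every library started from 10 pg of this total RNA, roughly what a cell contains, reverse transcribed from an oligo(dT) primer and amplified by 20 cycles of PCR. For 3 libraries the amplified cDNA was sheared by sonication, and for 3 it was cut and tagged by the hyperactive Tn5 transposase (tagmentation). Values are RPKM, reads normalised for the length of the gene model (in kilobases) and for the size of the library, and libraries are named by method and by the replicate number 1 to 3 on their labels. The labels call the replicates technical, so every p-value below speaks of the spread among these libraries, not among cultures. They do not say what libraries of the same number share. The sample notes also call the material a lysate of a single cell, whereas the protocol describes 10 pg taken from extracted total RNA. For RNA extracted from many cells, fewer cells of a kind and less RNA per cell cannot be told apart.

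Oxidative phosphorylation takes place in the inner mitochondrial membrane. Complex II (succinate dehydrogenase) passes electrons from succinate to ubiquinone, complex III passes them from ubiquinol to cytochrome c, and complex IV (cytochrome c oxidase) passes them to oxygen. Complexes III and IV pump protons, and ATP synthase lets the protons flow back through its membrane rotor to make ATP. Complex II is encoded wholly in the nucleus, whereas complexes III and IV and ATP synthase also hold subunits encoded by mitochondrial DNA, which were not analysed here. Mouse embryonic stem cells are known to draw on both glycolysis and respiration.

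The libraries held 18852822 to 34681566 alignments. All 6 embryonic stem cell markers on a fixed list passed the filter for testing, with summed levels of 813 to 2214 RPKM after sonication and 1290 to 2108 RPKM after tagmentation, although Nanog was at 0 in the number 3 libraries of both methods. Of 5 fibroblast markers with a row, the collagen genes Col1a1, Col1a2 and Col3a1 were under 1 RPKM throughout, and nearly all of the sum, 121 to 187 RPKM after sonication and 136 to 195 RPKM after tagmentation, was Vim, which stem cells also express. The remaining marker, Thy1, had 12.1 and 9.55 RPKM in number 1, 2.15 and 1.95 in number 2 and 0.0611 and 0.0831 in number 3 (limma F test, adjusted p = 1.14e-18). The endoderm marker Dab2, the only one of its list with a row, had 5.54 and 9.29 RPKM in the libraries of number 1 and 0.107 RPKM or less elsewhere. The 4 muscle markers summed to 8.87 to 84.6 RPKM after sonication and 7.51 to 39.7 RPKM after tagmentation, and the highest sums, both in number 1, were almost wholly Acta1. The other 3 muscle markers were highest elsewhere, Des in number 2 at 9.75 and 8.27 RPKM (0 in number 1), and Myh6 and Myh7 in number 3, at 4.56 and 4.24 RPKM and at 2.66 and 1.81 RPKM. By the protocol every library was drawn from extracted total RNA, and the labels call the replicates technical. Neither the part of other cells nor that of starting from 10 pg with 20 cycles of PCR was tested for the differences between numbers described below.

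Transcripts of the respiratory machinery were abundant. The 37 genes had a median of 214 RPKM (mean over the 6 libraries), against 14.8 RPKM for all 6327 genes tested, meaning those at 1 RPKM or more in at least 3 libraries. All 37 passed that filter, 36 of them lay above the median tested gene, and 30 averaged at least 100 RPKM. The exception was Cycs, the gene of cytochrome c itself, at 9.93 RPKM. Of the 37, 32 stood at 10 RPKM or more in every library, 86.5% of them against 27.0% of the genes tested. The only value under 1 RPKM was that of Sdhd in tagmentation library 3. The typical member of complex IV had 425 RPKM, of ATP synthase 229.8 RPKM, of complex III 192 RPKM and of complex II 85.1 RPKM (medians over genes). For 33 of the genes the deposited values were whole reads of a single gene model of 292 to 3059 bases, which gave 32 to 63833 reads per gene and library with a median of 3750. With the median length of 679 bases, 1 read amounted to between 0.0425 and 0.0781 RPKM. The longest of these models, 3059 bases, was that of Cycs, and the part of gene length in the levels was not tested. For Atp5c1, Atp5f1, Atp5g1 and Atp5j no single length was found, so their reads are not known.

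**Figure D1:**
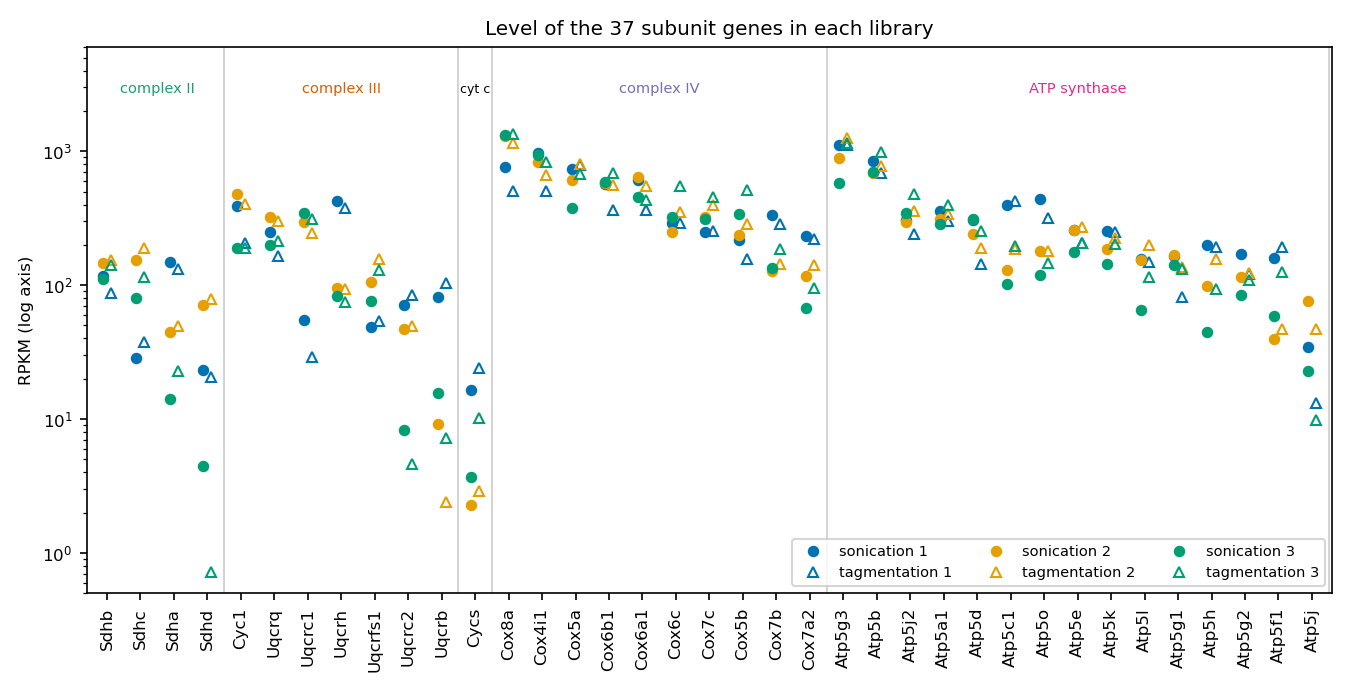
RPKM of each subunit gene (log axis) in the 3 sonication (filled circles) and 3 tagmentation libraries (open triangles), coloured by replicate number and ordered by mean level within each complex. Most complex IV and ATP synthase genes lie near the top, while Sdhd, Uqcrb, Uqcrc2, Cycs and Atp5j of ATP synthase spread downwards. Circle and triangle of the same colour mostly lie near each other.

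Complex II holds its 4 proteins in equal numbers. The levels of 3 of its transcripts differed between replicate numbers, where 88.1% of all tested genes did, each with a pattern of its own. Sdha, the flavoprotein that oxidises succinate, had 149, 44.99 and 14.2 RPKM after sonication and 133, 49.9 and 22.9 RPKM after tagmentation in libraries 1 to 3. It was high in both libraries of number 1 and low in both of number 3. Sdhb, the iron-sulfur subunit and the member of highest mean in this complex, had 117, 145 and 112 RPKM after sonication and 87.5, 154 and 142 RPKM after tagmentation. Its number means lay 1.47-fold apart and were not called between numbers in limma's F test (Benjamini-Hochberg adjusted p = 0.327), although median-ratio scaling of the libraries gave 0.00823, quantile normalization 0.0278 and the fit without sonication library 1 0.0208. Sdhc and Sdhd are the membrane anchors that bind ubiquinone. Sdhc had 28.8, 155 and 80.7 RPKM after sonication and 37.7, 189.7 and 116 RPKM after tagmentation, lowest where Sdha was highest. Sdhd had 23.3, 71.1 and 4.46 RPKM after sonication and 20.7, 78.5 and 0.718 RPKM after tagmentation, highest in number 2 and lowest in number 3, where 108 and 32 reads were counted. Number means on the log2(RPKM + 1) scale were apart by 24.7-fold for Sdhd, 7.44-fold for Sdha and 5.08-fold for Sdhc, and all 3 differed between numbers (limma, adjusted p = 1.86e-26, 2.05e-12 and 6.88e-09). Within a library the ratio of Sdha to Sdhc, which no scaling of the library can alter, was 5.17, 0.291 and 0.176 after sonication and 3.53, 0.263 and 0.197 after tagmentation. The order of these subunits was thus inverted between number 1 and the other numbers in both methods.

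Stretches of 150 bases just upstream of the start site are shown for the member of complex II that varied least and the one that varied most, and for cytochrome c, the least abundant member. They come from RefSeq (GRCm38.p6), on the strand of the gene, 5′ to 3′. Capitals mark matches to letters of 3 motifs known from respiratory genes: GCATGCGC, the core of the site of nuclear respiratory factor 1 (NRF1), CCGGAAG, an ETS site as bound by GABP, and AAGATGGC, a YY1 site, each searched on both strands. The Sdhb stretch is chr4:140961121-140961270 (+ strand), that of Sdhd is chr9:50603850-50603999 (- strand) and that of Cycs is chr6:50566570-50566719 (- strand).
Sdhb: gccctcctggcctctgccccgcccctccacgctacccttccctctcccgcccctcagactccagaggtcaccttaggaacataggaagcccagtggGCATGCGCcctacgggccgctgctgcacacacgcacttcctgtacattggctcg
Sdhd: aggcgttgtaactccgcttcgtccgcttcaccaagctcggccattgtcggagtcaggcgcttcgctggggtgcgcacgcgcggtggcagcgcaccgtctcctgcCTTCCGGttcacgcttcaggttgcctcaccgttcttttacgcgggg
Cycs: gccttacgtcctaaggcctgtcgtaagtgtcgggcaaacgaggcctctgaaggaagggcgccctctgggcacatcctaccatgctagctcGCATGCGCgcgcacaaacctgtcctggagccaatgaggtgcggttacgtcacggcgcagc
Sdhb and Cycs hold the NRF1 letters and Sdhd the ETS letters on its other strand. RefSeq windows from 250 bases before to 50 after the start were found for 29 of the 37 genes (32 windows). The NRF1 letters were in 7 of the 32 windows (21.9%) against 2.71% of 32851 windows of all genes, the ETS letters in 11 (34.4%) against 8.86%, and the YY1 letters in 3 (9.38%) against 2.75%. CCGGAAG and AAGATGGC can overlap in the letters AAG, and the NRF1 letters can match both strands at nearly the same place. A match is a run of letters and not a measured binding site.

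The subunits of complex III likewise took different courses. The core proteins Uqcrc1 and Uqcrc2 form a pair in the complex. Uqcrc1 had 54.9, 295 and 346 RPKM after sonication and 29.2, 246 and 313 RPKM after tagmentation, lowest in number 1. Uqcrc2 had 70.5, 47.4 and 8.23 RPKM after sonication and 84.2, 49.2 and 4.58 RPKM after tagmentation, lowest in number 3. Their ratio within a library was 0.778, 6.22 and 42.1 after sonication and 0.347, 5.00 and 68.3 after tagmentation, a spread of 197-fold from lowest to highest. Uqcrb, a small subunit next to the ubiquinone site, had 81.5, 9.22 and 15.6 RPKM after sonication and 103, 2.41 and 7.17 RPKM after tagmentation. It stood high only in number 1, and in number 2 the methods read 102 and 42 reads of it. Uqcrh, the acidic hinge protein that helps cytochrome c dock, had 422, 95.9 and 83.6 RPKM after sonication and 379, 94.2 and 74.8 RPKM after tagmentation, again highest in number 1.

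The electron-carrying subunits of complex III varied less. Cyc1, cytochrome c1 and the most abundant of the 7, had 391, 482 and 189 RPKM after sonication and 205, 406 and 188 RPKM after tagmentation. Uqcrfs1, the Rieske iron-sulfur protein, had 48.9, 106 and 76.6 RPKM after sonication and 53.8, 158 and 130.2 RPKM after tagmentation. Cyc1 was highest in number 2 and Uqcrfs1 lowest in number 1 in both methods, with number means 2.34-fold and 2.50-fold apart. Uqcrq, a small subunit, was the steadiest with 249.6, 325 and 198 RPKM after sonication and 164, 301 and 213 RPKM after tagmentation. Of the 7 genes 6 differed between numbers in limma's F test, all but Uqcrq. Uqcrq was called with median-ratio scaling, with quantile normalization and without sonication or tagmentation library 1, and Uqcrfs1 lost its call without sonication or tagmentation library 2. The call of Cyc1 (adjusted p = 0.00552) ended without sonication library 2 (0.378), sonication library 3 (0.191) or tagmentation library 2 (0.490), and with no filter (0.0686). Cycs, the soluble carrier between complexes III and IV, had 16.5, 2.27 and 3.71 RPKM after sonication and 23.9, 2.91 and 10.2 RPKM after tagmentation, highest in number 1 for both methods (adjusted p = 1.08e-10). Mouse Cycs has processed copies elsewhere in the genome, and the sources used here do not say how reads matching several places were counted, so its level is uncertain.

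**Figure D2:**
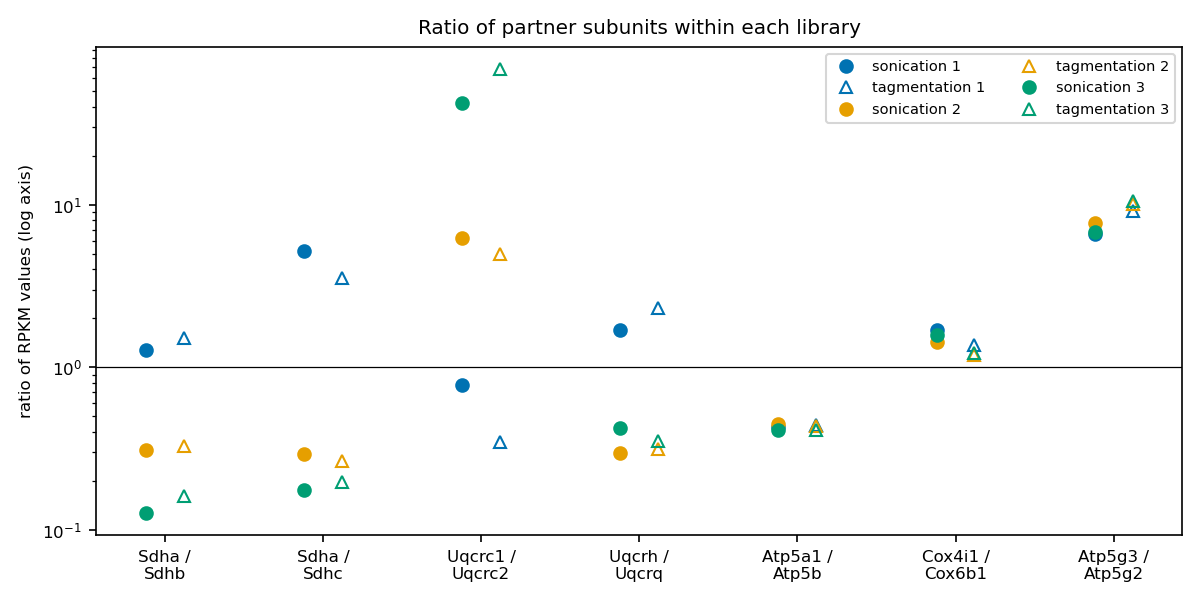
Ratio of the RPKM values of partner subunits in each library (log axis), for sonication (filled circles) and tagmentation (open triangles), coloured by replicate number; the line marks equal levels. Ratios of complex II and III partners move across the line between numbers, from 0.347 to 68.3 for Uqcrc1 over Uqcrc2, whereas Atp5a1 over Atp5b stays between 0.407 and 0.449.

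Complex IV transcripts were high and even by comparison. Cox8a, one of the smallest subunits, was the most abundant of all 37 genes with 758, 1291 and 1317 RPKM after sonication and 502, 1144 and 1350 RPKM after tagmentation. Both libraries of number 1 were lower than the other 4, and its number means lay 2.16-fold apart (adjusted p = 0.00604). That call ended with no filter (0.0710) and without sonication library 2 (0.290), tagmentation library 2 (0.310) or tagmentation library 3 (0.101). Cox4i1, the ubiquitous form of subunit 4 and the main regulatory subunit, had 966, 829.8 and 937 RPKM after sonication and 500.3, 668 and 837 RPKM after tagmentation. Its methods overlapped in a single value, tagmentation library 3, which lay above sonication library 2. Cox6a1 had 607, 638 and 454 RPKM after sonication and 361, 546 and 435 RPKM after tagmentation, also with little spread between numbers (1.33-fold). Cox7a2 was the lowest of the complex with 234, 117 and 67.8 RPKM after sonication and 219, 143 and 94.7 RPKM after tagmentation, highest in number 1 in both methods, and its call between numbers (adjusted p = 4.66e-04) ended without sonication library 2 (0.117) or tagmentation library 2 (0.115). The other 6 genes, Cox5a, Cox5b, Cox6b1, Cox6c, Cox7b and Cox7c, ranged from 128 to 804 RPKM over all libraries. Between numbers 4 of the 10 differed in limma's F test, namely Cox5b, Cox7a2, Cox7b and Cox8a, at 2.16-fold to 2.80-fold, where 88.1% of all tested genes were called. None of the 10 was called without sonication library 2 or without tagmentation library 2, and with median-ratio scaling all but Cox6a1 were. The ratio of Cox4i1 to Cox6b1, another subunit of the complex, stayed within 1.19 to 1.702 in the 6 libraries.

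In the catalytic head of ATP synthase the alpha and beta subunits, which alternate around the ring where ATP is made, had the closest number means of all members as deposited. Atp5a1 (alpha) had 361, 311 and 288 RPKM after sonication and 304, 338 and 399 RPKM after tagmentation, with number means only 1.05-fold apart. Atp5b (beta) had 845, 693 and 701 RPKM after sonication and 692, 782 and 979.5 RPKM after tagmentation, 1.13-fold apart. Neither was called between numbers (adjusted p = 0.985 and 0.899), but with median-ratio scaling both were (0.00314 and 0.00152). Their number means then lay 1.42-fold and 1.53-fold apart, and those of Cox6a1 (1.04-fold) and Atp5e (1.10-fold) were the closest. Their ratio was 0.427, 0.449 and 0.411 after sonication and 0.439, 0.433 and 0.407 after tagmentation, so that the spread over the 6 libraries was 1.10-fold. Atp5c1 (gamma) had 397, 129 and 102 RPKM after sonication and 424, 186 and 195 RPKM after tagmentation, highest in number 1, while Atp5d (delta) had 307, 242 and 312 RPKM after sonication and 143, 189 and 253 RPKM after tagmentation and Atp5e (epsilon) had 257, 258 and 177 RPKM after sonication and 207, 273 and 207 RPKM after tagmentation, neither of which was called between numbers (adjusted p = 0.458 and 0.451). Atp5d was called with median-ratio scaling, with quantile normalization and without sonication library 1, and Atp5e with quantile normalization and without tagmentation library 1.

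Atp5g1, Atp5g2 and Atp5g3 encode precursors that are cut to the same mature c subunit, the protein of the membrane rotor, and their levels are set side by side here. Atp5g3 had 1117, 894 and 575 RPKM after sonication and 1109, 1260 and 1145 RPKM after tagmentation. Atp5g2 had 169.9, 116 and 84.2 RPKM after sonication and 121, 124 and 109 RPKM after tagmentation. Atp5g1 had 165, 167 and 141 RPKM after sonication and 80.9, 137 and 131 RPKM after tagmentation. Atp5g3 was thus the highest of the trio in each library, and the ratio of Atp5g3 to Atp5g2 lay between 6.57 and 10.5. None of the trio was called between numbers (adjusted p = 0.43, 0.304 and 0.591 for Atp5g3, Atp5g2 and Atp5g1). With median-ratio scaling Atp5g3 (0.0316) and Atp5g2 (0.00608) were, as they were without tagmentation library 1 (0.0176 and 0.0131), and Atp5g1 was without sonication library 1 (0.0277). The level of Atp5g1 per length depends on its gene model, for which no single length was found. The 150 bases upstream of the trio are shown because the genes share a mature product but not a promoter, at chr11:96075632-96075781 (- strand) for Atp5g1, chr15:102671048-102671197 (- strand) for Atp5g2 and chr2:73911327-73911476 (- strand) for Atp5g3 (GRCm38.p6, capitals as above).
Atp5g1: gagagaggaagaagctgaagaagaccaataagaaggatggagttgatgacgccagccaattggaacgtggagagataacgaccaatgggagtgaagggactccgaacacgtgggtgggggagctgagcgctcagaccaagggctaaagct
Atp5g2: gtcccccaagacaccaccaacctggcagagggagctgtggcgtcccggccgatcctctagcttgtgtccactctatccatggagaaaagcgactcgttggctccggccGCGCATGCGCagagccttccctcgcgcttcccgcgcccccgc
Atp5g3: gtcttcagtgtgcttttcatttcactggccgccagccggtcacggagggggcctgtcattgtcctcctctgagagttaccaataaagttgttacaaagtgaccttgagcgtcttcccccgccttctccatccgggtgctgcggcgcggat
In these stretches only that of Atp5g2 holds one of the motifs, the NRF1 letters read on both strands of 1 place.

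The peripheral stalk, which keeps the head from turning with the rotor, held the member of lowest mean in ATP synthase. Atp5j, coupling factor 6, had 34.2, 76.0 and 23.0 RPKM after sonication and 13.2, 47.1 and 9.88 RPKM after tagmentation. In each number the tagmentation library was below the sonication library, and number 2 was highest in both methods. Its stalk partners were more abundant: Atp5o (the OSCP subunit) averaged 231 RPKM, Atp5h (subunit d) 131 RPKM and Atp5f1 (subunit b) 104 RPKM over the 6 libraries, all highest in number 1. No single gene model length was found for Atp5j or Atp5f1, so their reads are not known and their rank by level per length is uncertain. The small membrane subunits Atp5j2, Atp5k and Atp5l averaged 337, 210.0 and 140.3 RPKM. RefSeq lists 2 start sites for Atp5j, and the 150 bases before the one with motif letters are shown, at chr16:84834977-84835126 (- strand). The gene was chosen as the only member called between methods in all 6 libraries with the replicate number as a block, described below.
Atp5j: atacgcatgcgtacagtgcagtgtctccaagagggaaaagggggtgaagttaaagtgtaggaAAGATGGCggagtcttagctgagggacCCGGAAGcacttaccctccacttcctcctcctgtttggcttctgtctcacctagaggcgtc
The first run of capitals is the YY1 letters and the second the ETS letters.

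Summed over all 37 genes, the level was 11785, 10620 and 9168 RPKM with sonication and 9474, 11279 and 11591 RPKM with tagmentation, or 10524 ± 1311 against 10781 ± 1143 RPKM (SD, n = 3). Complex IV summed to 4936 ± 75.0 and 4850 ± 1042 RPKM. ATP synthase summed to 4067 ± 1013 and 4506 ± 80.3 RPKM. In the values as deposited, the spread therefore lay with sonication for ATP synthase and with tagmentation for complex IV, where tagmentation library 1 was the lowest at 3723 RPKM. Median-ratio scaling shifted sonication library 3 by 0.41 and tagmentation library 2 by -0.33 on the log2 scale. The sums were not taken again after it, so where the spread lies may depend on the scaling. Complex III summed to 1199 ± 244 and 1069 ± 169 RPKM, and complex II to 315 ± 102 and 344 ± 110.5 RPKM. In each complex the sums of the methods overlapped.

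**Figure D3:**
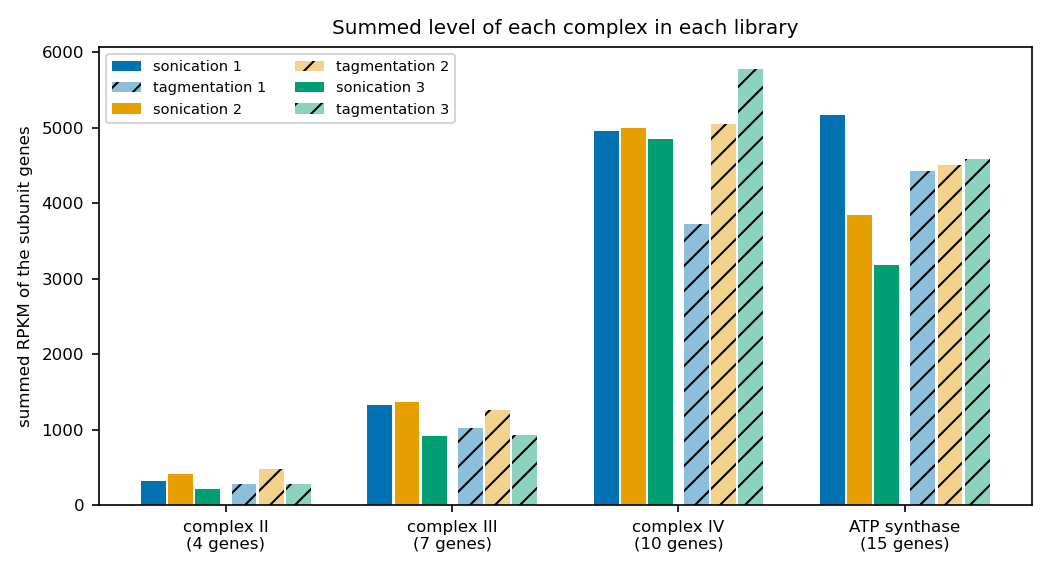
Summed RPKM of the subunit genes of each complex, 1 bar per library, plain for sonication and hatched for tagmentation, coloured by replicate number. Complex IV and ATP synthase each sum to between 3183 and 5779 RPKM, well above complexes II and III, and the bars of the methods overlap in each complex.

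Across replicate numbers, 20 of the 37 genes (54.1%) differed in limma's F test with the method as a term, where 88.1% of all genes tested were called. A wide spread went with a low level. Among the 610 tested genes with a mean of at least 100 RPKM 57.7% were called, and over the 37 genes the range between number means correlated with the log2 mean level at Pearson r = -0.71 (Spearman -0.70), a description across genes that share the same 6 libraries. Number means were 4-fold or more apart in 8 genes (21.6%, against 58.5% of all tested): Sdha, Sdhc, Sdhd, Uqcrb, Uqcrc1, Uqcrc2, Uqcrh and Cycs. Uqcrh was the nearest inside that line at 5.01-fold, beside Sdhc at 5.08-fold, and Atp5f1 lay just outside it at 3.998-fold. All 8 belong to the 12 genes of complexes II and III and cytochrome c, and none to the 25 of complex IV and ATP synthase, a split that rests on where the line is set, was seen after the values were known and was not tested. The latter had a median of 241 RPKM against 98.4 RPKM, so level and complex go together here. Of the 6 genes of complexes II and III that averaged at least 100 RPKM, 3 were 4-fold or more apart, Sdhc, Uqcrc1 and Uqcrh. At that level 13.1% of the 610 tested genes and 10.0% of the 30 subunit genes were.

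The median gene of complex II moved 6.26-fold between number means and of complex III 5.01-fold, against 1.5-fold in complex IV, 1.49-fold in ATP synthase and 5.20-fold over all genes tested. Numbers did not share a direction: 15 genes were highest in number 1, 11 in number 2 and 11 in number 3. With a single library of each method per number, the error of the F test comes from how the methods differ within numbers. This error is drawn towards a value shared by genes of like level, and small p-values moved with the setting. For Sdhd limma's adjusted p was 1.86e-26, but 0.00653 with no filter and 0.00592 with median-ratio scaling. The count of subunit genes called also moved with the scaling. It was 34 with median-ratio scaling, which shifted single libraries by up to 0.41 on the log2 scale, and 33 with quantile normalization. The counts over all tested genes were then 92.3% and 91.7%. It was 10 without sonication library 2 and 8 without tagmentation library 2. The 8 genes 4-fold or more apart were called in each of the 13 settings in which they were tested (12 for Cycs, which a filter at a mean of 10 RPKM left out). With median-ratio scaling they remained 4-fold or more apart, with Atp5f1 at 4.92-fold beside them.

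**Figure D4:**
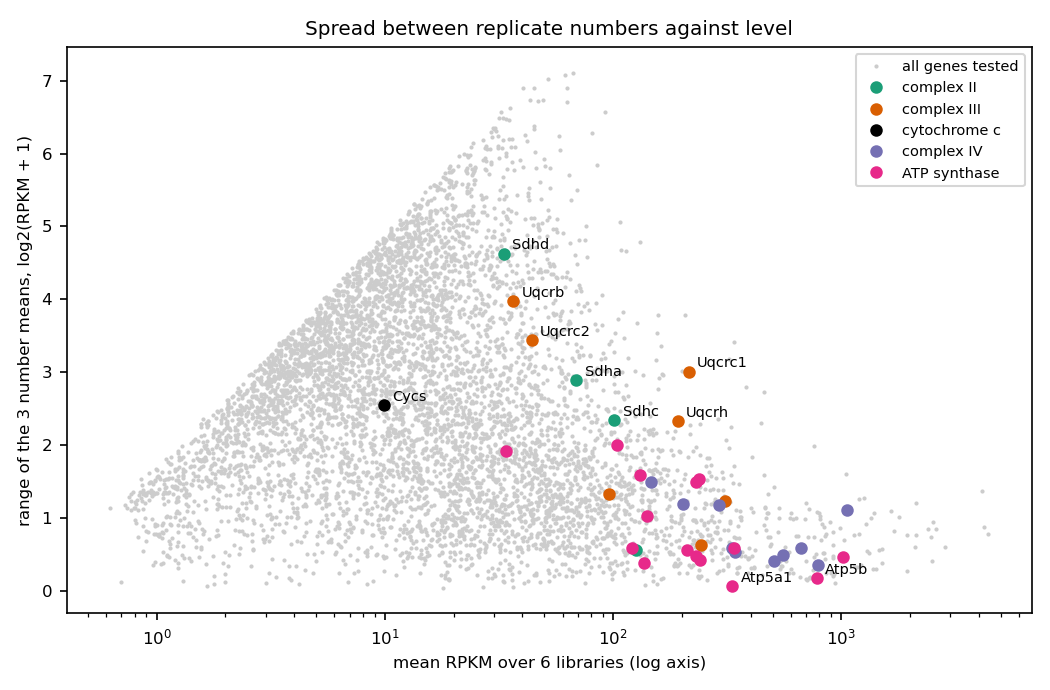
Range of the 3 replicate-number means of log2(RPKM + 1) against the mean RPKM over 6 libraries (log axis) for all 6327 tested genes (grey) and the 37 subunit genes, coloured by complex. Ranges of 2 or more, which is 4-fold, are reached by 8 of the 12 genes of complexes II and III and cytochrome c. Sdhb, Uqcrq, Cyc1 and Uqcrfs1 lie lower. So do the genes of complex IV and ATP synthase, Atp5f1 at the line of 4-fold excepted, and these lie mostly further right.

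The series asked how the methods of making a library compare. No subunit gene differed between sonication and tagmentation in limma's test on log2(RPKM + 1) with the method as the only term: 0 of 37 were called at an adjusted p under 0.05, where 0.00% of all 6327 genes were, and none of the 37 had an unadjusted p under 0.05, against 18 of all genes. The log2 fold changes, tagmentation over sonication, ran from -1.04 for Atp5j to 0.67 for Cycs, 20 above 0 and 17 below, with a median of 0.11 against 0.028 for all genes tested. The median turned to -0.0034 with median-ratio scaling and to -0.015 with quantile normalization. In complex III 6 of 7 genes were below 0 (all but Uqcrfs1), in complex II 1 of 4, in complex IV 4 of 10 and in ATP synthase 6 of 15. The genes of wide spread had wide errors, as in Sdha with 0.21 (SE 0.91), Sdhd with -0.56 (SE 1.47), Uqcrb with -0.76 (SE 1.35), Uqcrc1 with -0.43 (SE 0.94), Uqcrc2 with -0.14 (SE 1.14) and Cycs with 0.67 (SE 1.27). The steady ones had narrower errors, as in Atp5a1 with 0.11 (SE 0.33), Atp5b with 0.12 (SE 0.30), Cox4i1 with -0.47 (SE 0.32), Cox6a1 with -0.34 (SE 0.33) and Sdhb with 0.0044 (SE 0.43). The SEs are for 3 against 3 libraries, and such values do not show that the methods gave equal levels. This fit leaves the spread between replicate numbers in the error. With the number as a block the SE of Sdhd was 0.30, and 208 of the 6327 genes were called. The blocked SEs of the 37 genes lay between 0.287 (Cycs) and 0.301 (Cox5b). The fit draws each error towards a value shared by genes of like level, so these SEs are not each gene's own spread. Sdhd, for example, had pair differences of -0.17, 0.14 and -1.67 in numbers 1 to 3.

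In 1 of the 37 genes (2.70%) the 3 sonication and 3 tagmentation values did not overlap, where 2.40% of all tested genes stood apart. This was Atp5g1, lower after tagmentation with -0.47 (SE 0.42) and an adjusted p of 1.00 in limma's test. Atp5g3 had 0.49 (SE 0.33) and Atp5g2 -0.0093 (SE 0.44), so that the values of the trio lay on either side of 0 without a call. Cyc1 had -0.39 (SE 0.47), Cox7a2 0.22 (SE 0.55) and Cox8a -0.24 (SE 0.43). Of the 37 genes 8 were higher after tagmentation in 3 of 3 numbers (19.6% of all tested genes were) and 8 lower (14.2%). The 8 lower ones were Uqcrc1, Uqcrh, Cyc1, Cox4i1, Cox6a1, Atp5d, Atp5g1 and Atp5j. Those higher were Sdhc, Uqcrfs1, Cycs, Cox5a, Cox6c, Cox7c, Atp5c1 and Atp5f1. With median-ratio scaling 14 genes were higher in 3 of 3 numbers (22.8% of all tested) and 14 lower (27.8%), all those named except Uqcrh among them. Cox6a1 then joined Atp5g1 in having no overlap, making 2 of 37 genes, where 176 of the 6327 genes tested stood apart.

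With the replicate number as a block, Atp5j alone was called, lower after tagmentation by 1.04 on the log2 scale (SE 0.29, limma adjusted p = 0.024) and lower in 3 of 3 pairs. That is 1 of 37 genes, where 1.71% of all genes tested were called lower, 1.58% higher and 3.29% in either direction. The call ended without replicate number 2 (-1.23, adjusted p = 0.999), without number 3 (-0.995, adjusted p = 0.651), after a correction for GC content (-0.94, adjusted p = 0.221) and after one for transcript length (-0.9995, adjusted p = 0.0758). Either correction took the calls over all genes from 208 to 0. Without replicate number 1 the blocked fit called 8 subunit genes, where it called 16.6% of all genes: Atp5c1, Atp5g3, Atp5h, Cox5a, Cox6c and Uqcrfs1 higher and Atp5j and Uqcrb lower. The largest of these was Uqcrb with -1.30 (SE 0.24, adjusted p = 0.0102), whose pair differences were 0.33, -1.58 and -1.02 in numbers 1 to 3. In number 1, 27 of 37 genes were lower after tagmentation (median difference -0.21), and in number 3, 26 of 37 were higher (0.45). With median-ratio scaling this contrast between numbers was gone, with 18 genes lower in number 1 (median 0.039) and 19 higher in number 3 (0.012). Over all genes tested the unscaled medians were -0.072 and 0.20, and -0.40 and 0.37 over those of at least 100 RPKM. Higher after tagmentation in numbers 1 and 3 were 27.0% and 70.3% of the subunit genes. The shares were 38.5% and 65.4% of all genes tested and 23.3% and 78.2% of those of at least 100 RPKM. With the scaling, 2697 of all 6327 genes were lower in number 1 and 2543 higher in number 3.

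**Figure D5:**
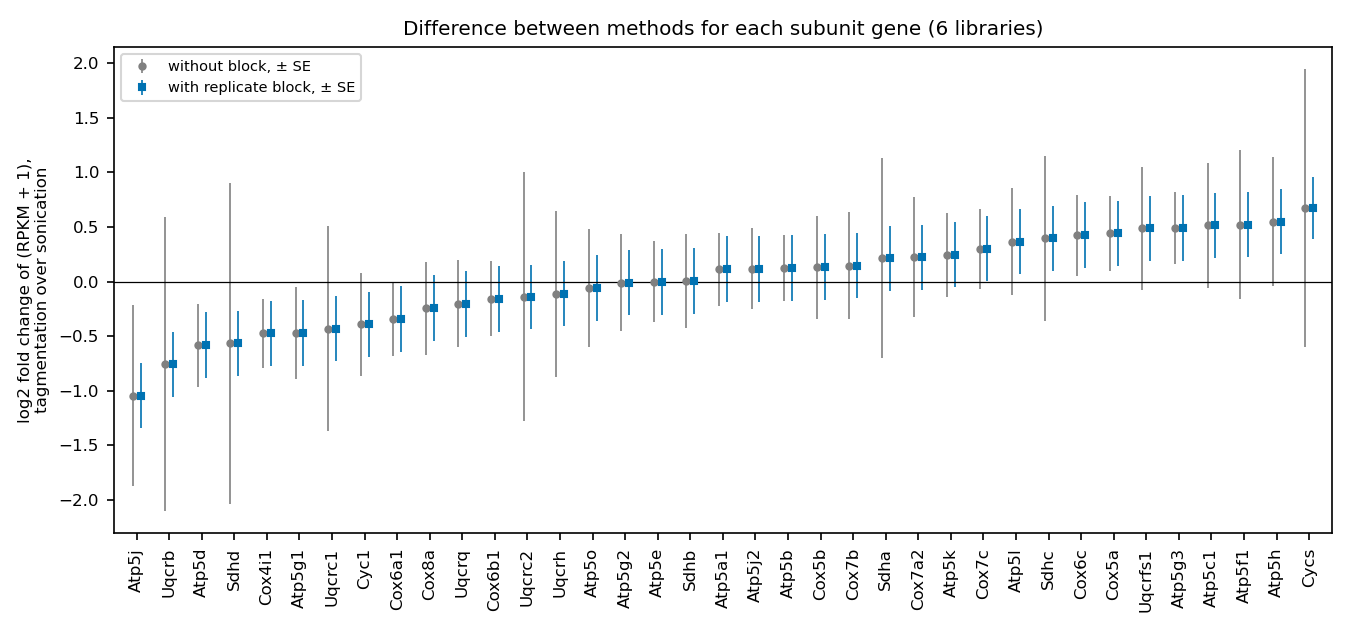
Log2 fold change of RPKM + 1, tagmentation over sonication, for each subunit gene without (grey circles) and with the replicate number as a block (blue squares), bars ± SE, ordered by value. The points of the fits coincide. With the block all bars come to nearly the same SE, 0.287 to 0.301, through an error shared across genes. They shrink most for genes of wide spread such as Sdhd and Cycs, and Atp5j at -1.04 is the gene farthest from 0.

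Base composition moved with the difference between methods, most in number 1. Across the 37 genes the GC content of the longest GENCODE transcript correlated with the difference within number 1 at Pearson r = -0.65 (Spearman -0.68), within number 2 at -0.17 (-0.45) and within number 3 at -0.19 (-0.39). Of the 5 genes of highest GC content, Atp5d (59.3% GC), Cox6a1 (58.8%) and Cox4i1 (58.0%) were lower after tagmentation in all 3 numbers, Cox8a (58.5%) in numbers 1 and 2, and Atp5g2, the most GC-rich at 63.4%, in number 1 only. Of the 5 of lowest GC content, Cox7c (38.4%) and Cycs (40.8%) were higher in all 3 numbers, Cox7b (42.0%) in numbers 2 and 3, Uqcrc2 (44.4%) in numbers 1 and 2, and Uqcrb (42.2%) in number 1 only. Atp5j has 56.0% GC. Transcript length correlated less, at Pearson r = 0.04, 0.06 and 0.07 within numbers 1 to 3. For the fold change between methods over all libraries, r was 0.07 for length and -0.39 for GC content. The correction for length, like that for GC content, still took the blocked calls over all genes to 0. The correlations describe 37 genes that share their libraries, and the part of base composition in the differences was not tested.

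Other genes of the pathway gave no calls between methods with or without the block. These were 37 of 37 listed complex I subunits that passed the filter (median log2 fold change 0.058), 13 of 13 enzymes of the tricarboxylic acid cycle (-0.021), 15 of 20 assembly factors (0.12), 7 of 11 nuclear regulators (0.019), 6 of 6 membrane carriers and channels (0.23) and 6 of 6 further subunits and isoforms (0.25). Between numbers 28 complex I subunits, 11 cycle enzymes, 14 assembly factors, 6 regulators, 4 carriers and 2 further subunits differed, where 88.1% of all tested genes did. The most abundant were Atpif1, the inhibitor of ATP synthase, at 539 RPKM, Slc25a3, the phosphate carrier, at 472 RPKM, and Ndufs6 and Ndufa6 of complex I, at 355 and 321 RPKM over the 6 libraries. Nrf1 and Gabpa, whose motifs are spelled out above, differed between numbers. Nrf1 had 0.906, 33.0 and 16.2 RPKM after sonication and 0.616, 37.4 and 16.1 RPKM after tagmentation, and Gabpa, the DNA-binding part of GABP, had 27.5, 2.46 and 0.883 RPKM after sonication and 35.4, 4.02 and 0.0578 RPKM after tagmentation. Nrf1 was lowest and Gabpa highest in number 1 (limma F test, adjusted p = 1.76e-26 and 3.94e-27). Ppargc1a and Ppargc1b, coactivators known from energy-demanding tissues, were at most 0.0210 RPKM in every library.

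Among isoforms known from restricted tissues, Cox6b2, the testis form of subunit 6b, had 25.6, 153 and 109 RPKM after sonication and 21.1, 167 and 139 RPKM after tagmentation, below its ubiquitous partner Cox6b1 in all 6 libraries and lowest in number 1. Cox7a1, the heart and muscle form of subunit 7a, had 61.5 and 35.8 RPKM in number 1 and was listed at 0 in the other 4 libraries. In number 1 the muscle marker Acta1 stood at 84.1 and 39.4 RPKM, while Des was at 0 and Myh6 and Myh7 were under 1 RPKM. Cox7a1 did not pass the filter and was not tested. Cyct, the testis form of cytochrome c, was at most 0.0730 RPKM, and Cox7b2 had 9.08 RPKM in sonication library 3 and at most 0.586 RPKM elsewhere.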

How the data were processed

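RNA-seq of 3 sonication and 3 tagmentation libraries was used, with groups and replicate numbers taken from the sample labels; all columns were mapped by name. The authors deposited RPKM values per gene symbol with the number of alignments of each library, per the file headers. The submitters' processing notes name the build mm9, CASAVA 1.7.0 and Partek, without roles; the aligner, the annotation and the handling of reads that match more than 1 place were not given in the sources used here. Values were tested as log2(RPKM + 1) for the 6327 genes at 1 RPKM or more in at least 3 libraries, with limma 3.58.1 in R 4.3.3 (eBayes with trend, two-sided, Benjamini-Hochberg over all genes, threshold 0.05). Fold changes on this scale understate changes of low genes.

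The comparison of methods had no other term; the replicate block was an alternative. The labels do not say that libraries of 1 number share a cDNA. Their deviations from the mean of their method correlated at r = 0.952, 0.969 and 0.934 for numbers 1, 2 and 3. Every other correlation was below 0, a sign that subtracting the mean of each method favours and that does not bear on the pairing. The levels themselves correlated at r = 0.977, 0.977 and 0.958 within numbers 1, 2 and 3 and at 0.453 to 0.7235 otherwise. Same-numbered libraries were therefore taken as pairs. Differences between numbers were tested with an F test with the method as a term. Reads were taken from the RPKM steps as whole numbers within 0.002 reads plus rounding. GC content and length came from the longest GENCODE M21 transcript, found for 98.6% of genes. The fits were tested on simulated data. Members and lists were chosen with earlier results of these data known. Members were described in full where they were called with or without the block, did not overlap between methods, were highest or lowest in their complex, belonged to the Atp5g trio, or were among the 5 widest or 5 narrowest between numbers. The subunit ratios, the 4-fold line between number means and further members named were chosen after the values were seen.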

Additional observations from a re-analysis of the deposited data

How the results depend on the processing

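The count of subunit genes called between methods was 0 without the replicate block under each of the 6 other pseudocounts, filters and scalings and without any 1 library. With the replicate block it was 1 (Atp5j), and 8 with the replicate block without replicate 1; over all genes tested the replicate block gave 208 calls, and 1051, 10 and 19 without replicates 1, 2 and 3. Pathway genes called numbered 18 with the replicate block without replicate 1 and 0 in each other setting run. Genes differing between numbers were 5577, 3411 of the 4023 genes averaging 10 RPKM or more, and 4342 to 5867 without 1 library. Subunit genes differing between numbers were 20, 34 with median-ratio scaling, 33 with quantile normalization, and 8 to 30 without 1 library. Several uncalled fold changes changed sign with the libraries used: without 1 library the log2 fold change was -0.60 to 1.05 for Sdha, -0.15 to 0.25 for Sdhb, -1.80 to 0.97 for Sdhd, -2.19 to 0.27 for Uqcrb, -1.27 to 0.64 for Uqcrc1, -1.03 to 1.04 for Uqcrc2, -0.20 to 0.68 for Cox7a2, -0.52 to 0.19 for Cox8a, -0.015 to 0.24 for Atp5b and -0.25 to 0.25 for Atp5g2. Values also turned for Sdhb (-0.11 with median-ratio scaling, -0.12 with quantile normalization), Atp5a1 (-0.0034 and -0.015 in the same order) and Atp5g2 (0.35 after the GC and 0.047 after the length correction with the replicate block). With the replicate block they turned without replicate 1 for Atp5g2 (0.23), without replicate 2 for Sdhb (-0.033), and without replicate 3 for Sdha (-0.0059), Sdhb (-0.17), Uqcrc2 (0.15), Atp5a1 (-0.063) and Atp5b (-0.058). Cyc1, Cycs, Cox4i1, Cox6a1, Atp5g1, Atp5g3 and Atp5j kept their sign in every setting run in which they were tested. Leaving out 1 library without the block left 1 number with a single method. In the blocked fit without 1 number, Sdhd (-0.92 to -0.014), Uqcrb, Uqcrc1, Cox7a2 and Cox8a kept their sign. The cause of the sign changes was not tested. The replicate block changed no other call on the subunit genes. Between numbers, leaving out 1 library or changing the scaling or the filter ended or added the calls given beside Sdhb, Cyc1, Cox7a2, Cox8a, Atp5a1, Atp5b and the Atp5g trio. Atp5j lost its call without tagmentation library 2 (adjusted p = 0.171), Cox4i1 gained one with median-ratio scaling (0.00275) and without sonication library 1 (0.0327), and Cox6a1 without sonication library 1 (0.0349). Depth limits the lowest values, such as the 32 reads behind Sdhd in tagmentation library 3.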
